A study of Homo sapiens with 9 samples.

Results

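The 10 genes described here encode enzymes that make serine, turn it into glycine, and carry the carbon unit released in that step on folate: PHGDH, PSAT1, PSPH, SHMT1, SHMT2, MTHFD1, MTHFD2, MTHFD1L, ALDH1L2 and GLDC. They were taken by symbol from the table of counted reads, which holds 25382 entries once identical repeats are dropped. All 10 were found there and among the 14731 genes tested. PSAT1 was chosen by its read counts, which were higher with both knockdown reagents, so its values against control are a description without a test. The other 9 are enzymes of the same pathway. RNA came from 501mel, an established human melanoma line, 24 h after lipofection. Control cells received NC1, a control DsiRNA, and the knockdown cells received DsiRNA 13.6 or DsiRNA 13.8, both against TBX3, a T-box transcription factor. A DsiRNA is a short double-stranded RNA that Dicer cuts into a silencing guide. Each of the 3 groups had 3 libraries, which the labels call biological replicates, and every group is the same single line, so the p-values measure the spread between cultures of 501mel.

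Serine is made from the glycolytic intermediate 3-phosphoglycerate in 3 steps, catalysed in order by PHGDH, PSAT1 and PSPH. Serine hydroxymethyltransferases then convert serine to glycine and pass a carbon unit to tetrahydrofolate, and the folate enzymes of cytosol and mitochondria interconvert these units for the synthesis of purines, thymidylate and methionine. Many of these genes are known targets of ATF4, the transcription factor of the integrated stress response, and PHGDH is known for copy number gain in a subset of melanomas.

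Libraries held 38105026 to 52272147 counted reads. Levels are given as CPM, reads divided by the scaled library total and multiplied to a common scale, and changes as log2 fold changes ± SE. A gene is said to have risen or fallen only where its adjusted p was under 0.05, from a quasi-likelihood fit in edgeR with p-values adjusted across the 14731 genes after Benjamini and Hochberg. TBX3 stood at 85.5 ± 2.7 CPM in controls, 42.3 ± 3.7 CPM with 13.6 and 35.4 ± 1.4 CPM with 13.8 (SD, n = 3 libraries each), and fell by 1.02 ± 0.07 and by 1.27 ± 0.07 on the log2 scale (adjusted p = 1.27e-07 and 1.03e-08). Its level also differed between the reagents, 0.26 ± 0.07 higher with 13.6 than with 13.8 on the log2 scale (adjusted p = 0.00699). Melanocytic markers were abundant. The 8 genes summed to 13400 to 15400 CPM in controls, 13800 to 15000 CPM with 13.6 and 17400 to 18200 CPM with 13.8. Of these 8, 3 rose and 3 fell with 13.6, and 4 rose and 3 fell with 13.8. The shares of all genes tested were 24.9% higher and 25% lower with 13.6, and 27.5% and 27.9% with 13.8. TYRP1 went from 3600 CPM in controls to 7830 CPM with 13.8, while MITF went from 792 to 403 CPM. The 6 fibroblast markers summed to 4.45 to 5.98 CPM in controls, 4 to 5.11 CPM with 13.6 and 14.9 to 18.3 CPM with 13.8, and all 4 that could be tested rose with 13.8. Keratinocyte markers summed to 39.2 to 46.2 CPM over all libraries, nearly all of it from KRT10. Of the 4, KRT5 had no read, and KRT14 and KRT1 had at most 1 read in any library. Leukocyte markers summed to at most 2.05 CPM and endothelial markers to at most 0.78 CPM in any library, and the part of such markers in the results below was not tested. In RNA from whole cultures, fewer expressing cells and less RNA per cell cannot be told apart.

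PSAT1, which transfers an amino group onto the oxidised product of PHGDH, stood far above control with both reagents, alone among the members with more than a few reads per library. The 3 control libraries gave 24.9, 26.5 and 26.5 CPM, from 1152, 1018 and 1083 reads. With 13.6 the libraries gave 122, 132 and 127 CPM, and with 13.8 they gave 134, 137 and 137 CPM. All 6 knockdown libraries lay above all 3 controls, the pattern for which the gene was picked. Groups without overlap were common: knockdown and control libraries were apart in 56% of all genes tested with 13.6 (28.1% lower, 27.9% higher) and in 59.1% with 13.8 (29.6% lower, 29.5% higher), and the reagents were apart from each other in 68.8%. The level was 4.9-fold higher with 13.6 (log2 difference 2.29 ± 0.06) and 5.26-fold higher with 13.8 (2.39 ± 0.06). The contrast between the reagents was not used in picking the gene, and there PSAT1 was 0.10 ± 0.06 lower with 13.6 on the log2 scale, which did not pass the test (adjusted p = 0.134, 95% interval of the log2 difference −0.22 to 0.02). That difference passed with libraries scaled by their totals alone (−0.15, adjusted p = 0.0326) and when genes averaging under 50 reads were dropped (−0.13, adjusted p = 0.0494).

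The PSAT1 promoter sequence from RefSeq (build GRCh38.p14, 250 bases before to 50 after the start site, plus strand of chromosome 9) holds the letters CCAAT 3 times, and the stretches around them are shown because PSAT1 has the largest difference from control among the well counted members. Capitals mark the CCAAT letters, a common promoter word bound by the factor NF-Y.
PSAT1 at −113, chr9:78297000-78297029: tcagaagcgcgaCCAATggggatgtgagct
PSAT1 at −83, chr9:78297030-78297059: ccttcgcgcgaaCCAATtagcgcagggcct
PSAT1 at −52, chr9:78297061-78297090: cgacagcacgggCCAATggggcgccgactc
Positions count from the start site to the first letter of the word. The promoter table held 7 of the 10 members, and CCAAT was found on either strand in all 7. PSPH, SHMT2 and ALDH1L2 were not in it, so their promoters were not searched for any word. Of all 35116 promoters, 34.6% hold the word and 3.26% hold it at least 3 times. Here and below, members are counted by gene, and the shares by promoter, of which a gene can have several. The counts rest on build hg19, so these coordinates belong to the promoter table alone.

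PHGDH and PSPH, the enzymes before and after PSAT1, did not share its pattern. PHGDH, which commits 3-phosphoglycerate to serine, gave 1180, 1060 and 1260 CPM in controls, 992, 1080 and 1040 CPM with 13.6, and 1120, 1320 and 1200 CPM with 13.8. The ranges of control and knockdown libraries overlapped for each reagent. Neither difference from control passed the test, at −0.17 ± 0.08 with 13.6 (adjusted p = 0.102, 95% interval −0.35 to 0.01) and 0.06 ± 0.08 with 13.8 (adjusted p = 0.562, 95% interval −0.12 to 0.24). The difference with 13.6 passed without control replicate 2 (−0.24, adjusted p = 0.0338) and with library totals (−0.21, adjusted p = 0.0427). PHGDH was lower with 13.6 than with 13.8 by the direct test (−0.23 ± 0.08, adjusted p = 0.0267), with all 3 libraries of 13.6 below all 3 of 13.8. The call did not hold when 13.6 replicate 1 (−0.20), 13.6 replicate 3 (−0.23), 13.8 replicate 2 (−0.16) or 13.8 replicate 3 (−0.23) was left out.

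PSPH, the phosphatase that releases serine, fell with 13.6 and not detectably with 13.8. Controls gave 152, 165 and 176 CPM, and 13.6 gave 83, 87.3 and 89.9 CPM. PSPH fell by 47.1% (−0.92 ± 0.07, adjusted p = 2.15e-07). With 13.8 the libraries gave 140, 147 and 157 CPM, which overlaps the controls (−0.15 ± 0.07, adjusted p = 0.0789, 95% interval −0.30 to 0.00). Without control replicate 1 that difference passed (−0.20, adjusted p = 0.0237). The direct test put PSPH 0.77 ± 0.07 lower with 13.6 than with 13.8 (adjusted p = 5.95e-07). Within a library, where scaling cancels, there were 0.129 to 0.156 PSPH reads per PHGDH read in controls, 0.0809 to 0.0868 with 13.6 and 0.111 to 0.131 with 13.8. The same ratio for PSAT1 was 0.021 to 0.0251 in controls, 0.122 to 0.123 with 13.6 and 0.104 to 0.12 with 13.8. Reads of PSAT1 thus outnumbered those of PSPH in 13.6 libraries and were fewer in control and 13.8 libraries.

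**Figure D1:**
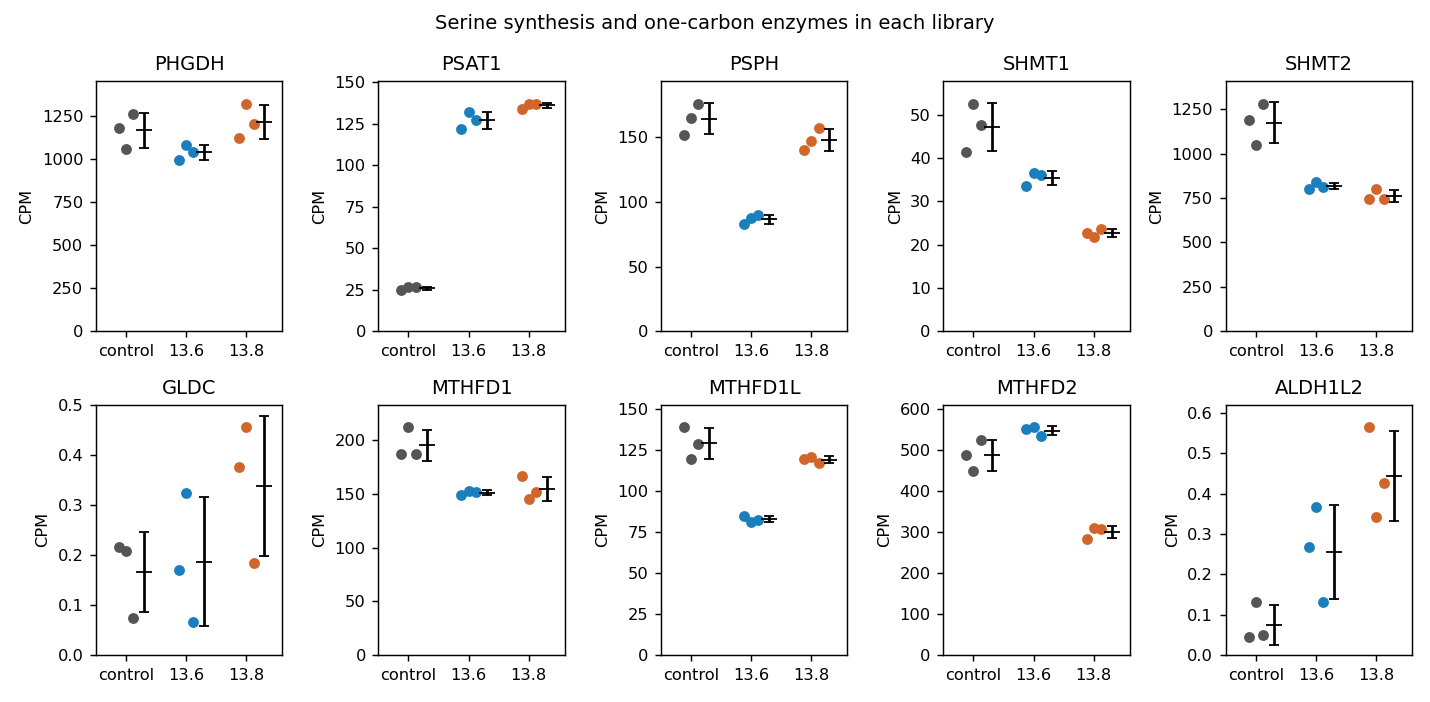
Level of each of the 10 genes in CPM, on a linear axis from 0, in the 3 control, 3 DsiRNA 13.6 and 3 DsiRNA 13.8 libraries (points), with the mean and SD of each group beside them. PSAT1 goes from 26 CPM in controls to 127 and 136 CPM, PSPH and MTHFD1L are low in the 13.6 libraries, and SHMT1 and MTHFD2 are low in the 13.8 libraries.

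Serine hydroxymethyltransferases exist as a mainly cytosolic form, SHMT1, and a mainly mitochondrial form, SHMT2, and both fell with both reagents. SHMT1 gave 41.5, 52.6 and 47.6 CPM in controls, 33.6, 36.7 and 36.1 CPM with 13.6, and 22.6, 21.8 and 23.7 CPM with 13.8. The 3 groups did not overlap. It fell by 0.42 ± 0.08 on the log2 scale with 13.6 (adjusted p = 0.00117) and by 1.06 ± 0.09 with 13.8 (adjusted p = 2.92e-07), and the level was higher with 13.6 than with 13.8 (0.64 ± 0.09, adjusted p = 2.53e-05).

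SHMT2 gave 1190, 1050 and 1280 CPM in controls, 800, 837 and 814 CPM with 13.6, and 744, 801 and 742 CPM with 13.8. All 6 knockdown libraries lay below the controls. It fell by 30.3% with 13.6 (−0.52 ± 0.07, adjusted p = 6.78e-05) and fell by 35% with 13.8 (−0.62 ± 0.07, adjusted p = 1.08e-05). The reagents did not differ detectably in SHMT2 (0.10 ± 0.07, adjusted p = 0.254, 95% interval −0.06 to 0.26). Per SHMT1 read there were 20 to 28.5 SHMT2 reads in control libraries, 22.6 to 23.8 with 13.6 and 31.3 to 36.8 with 13.8, so that the 13.8 libraries lay above the others in this ratio.

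GLDC, the glycine decarboxylase of the mitochondrial glycine cleavage system, was close to the detection limit. It had 10, 8 and 3 reads in controls, 7, 15 and 3 with 13.6, and 18, 24 and 9 with 13.8, and at least 10 reads in 4 of 9 libraries. Scaled by depth, the summed reads were 1.12 times the control with 13.6 (95% exact interval 0.603 to 2.11) and 2.04 times with 13.8 (1.20 to 3.56), intervals that hold counting error only. No difference between groups passed the test (adjusted p = 0.854, 0.160 and 0.213 for 13.6 against control, 13.8 against control and 13.6 against 13.8). Of the partners of GLDC in the cleavage system, the carrier protein GCSH rose with both reagents (0.40 ± 0.10 with 13.6 and 0.46 ± 0.10 with 13.8), and the aminomethyltransferase AMT rose with 13.8 (0.84 ± 0.21) and did not pass with 13.6 (0.18 ± 0.22, adjusted p = 0.523). The dihydrolipoamide dehydrogenase DLD, the remaining partner, rose with 13.6 (0.15 ± 0.05, adjusted p = 0.0385) and did not pass with 13.8 (0.07 ± 0.05, adjusted p = 0.303). DLD with 13.6 passed on leaving out control replicate 3 or 13.8 replicate 1, and not on leaving out any other single library (0.12 to 0.15). It also did not pass with library totals (0.11), with no filter on low counts (0.16) or with only the groups compared (0.16). GCSH, AMT and DLD were named after their values were seen.

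MTHFD1 carries 3 activities of cytosolic folate interconversion on 1 protein. It fell with both reagents, from 187, 212 and 187 CPM in controls to 149, 153 and 152 CPM with 13.6 (−0.36 ± 0.07, adjusted p = 0.000696) and 167, 145 and 152 CPM with 13.8 (−0.34 ± 0.07, adjusted p = 0.00104). All 6 knockdown libraries lay below the 3 controls. The levels with 13.6 and 13.8 differed by −0.03 ± 0.07 (adjusted p = 0.745, 95% interval −0.18 to 0.12).

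MTHFD1L, the mitochondrial enzyme that releases formate, fell with 13.6 and not detectably with 13.8. It gave 139, 120 and 129 CPM in controls, 84.8, 81.4 and 82.5 CPM with 13.6, and 120, 121 and 117 CPM with 13.8. The 13.6 libraries lay below every other library, while those of 13.8 overlapped the controls. It fell by 36% with 13.6 (−0.64 ± 0.06, adjusted p = 2.06e-06). The difference with 13.8 was −0.12 ± 0.06 (adjusted p = 0.113, 95% interval −0.25 to 0.01) and passed without control replicate 2 (−0.17, adjusted p = 0.0365). The direct test over all libraries put 13.6 lower than 13.8 by 0.52 ± 0.06 (adjusted p = 8.17e-06).

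The MTHFD1L promoter was the only one of the 7 with a match to TGATGNAAN, the composite word bound by ATF4 with C/EBP proteins, on either strand. The stretch is shown because ATF4 is a known regulator of this pathway, and capitals mark the match, which lies in the window of each of the 3 annotated MTHFD1L start sites.
MTHFD1L, chr6:150866347-150866376, plus strand, GRCh38.p14: ccgccggctcTGATGCAATcgcgccgggcg
The share of all RefSeq promoters with this word is 3.61%. PSAT1 has none in this window, which says only that these letters are not in these bases. The E-box CACGTG, a word bound by MYC and related factors, was found in the promoters of MTHFD1 and MTHFD1L, against 7.26% of all, and the T-box word GGTGTGA in none of the 7, against 3.45% of all. Matches to different words did not overlap.

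MTHFD2, the mitochondrial methylenetetrahydrofolate dehydrogenase, fell with 13.8, the reagent with which MTHFD1L did not pass. It gave 488, 447 and 523 CPM in controls, 550, 554 and 534 CPM with 13.6, and 283, 308 and 306 CPM with 13.8. The 13.8 libraries lay below all others and the 13.6 libraries above the controls, with 13.6 only slightly above the highest control. MTHFD2 fell by 38.5% with 13.8 (−0.70 ± 0.07, adjusted p = 1.57e-06) and stood at 0.17 ± 0.07 with 13.6 (adjusted p = 0.0529, 95% interval 0.02 to 0.31). The latter passed by DESeq2 (adjusted p = 0.0371) and limma-voom (adjusted p = 0.0457). In edgeR it passed when genes averaging under 50 reads were dropped (0.17, adjusted p = 0.0492). It also passed in edgeR without control replicate 3 (0.23, adjusted p = 0.00997) or 13.8 replicate 1 (0.17, adjusted p = 0.0466). MTHFD2 was 0.87 ± 0.07 higher with 13.6 than with 13.8 (adjusted p = 1.82e-07). Per MTHFD1L read there were 3.51, 3.71 and 4.05 MTHFD2 reads in controls, 6.48, 6.81 and 6.48 with 13.6, and 2.37, 2.55 and 2.6 with 13.8. The 3 groups did not overlap in this ratio.

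An annotated pseudogene of MTHFD2, MTHFD2P1, is counted on its own and rose with 13.8, where MTHFD2 fell. It gave 27.4, 24 and 30.7 CPM in controls, 26.1, 24.6 and 21.7 CPM with 13.6, and 38.7, 49.3 and 52 CPM with 13.8. The change was 0.77 ± 0.12 with 13.8 (adjusted p = 0.000108) and −0.18 ± 0.12 with 13.6 (adjusted p = 0.223). There were 17 to 18.6 MTHFD2 reads per MTHFD2P1 read in controls, 21.1 to 24.6 with 13.6 and 5.87 to 7.31 with 13.8. In the GENCODE release 29 transcripts, 0% of the 50-base stretches of MTHFD2P1 occur exactly in an MTHFD2 transcript. Over the 7 annotated pseudogenes that were compared, 2.52% of the 50-base stretches of the longest MTHFD2 transcript have an exact copy. The share was 4.72% for PSAT1, 3.43% for PSPH, 3.02% for MTHFD1 and 20.2% for GLDC, whose counts could therefore lose or share reads with their pseudogenes, and 0% for SHMT1. Pseudogenes were taken by name, and none was compared for PHGDH, SHMT2, MTHFD1L or ALDH1L2. The sources used here do not say how reads with several matches, or on the antisense strand, were counted.

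**Figure D2:**
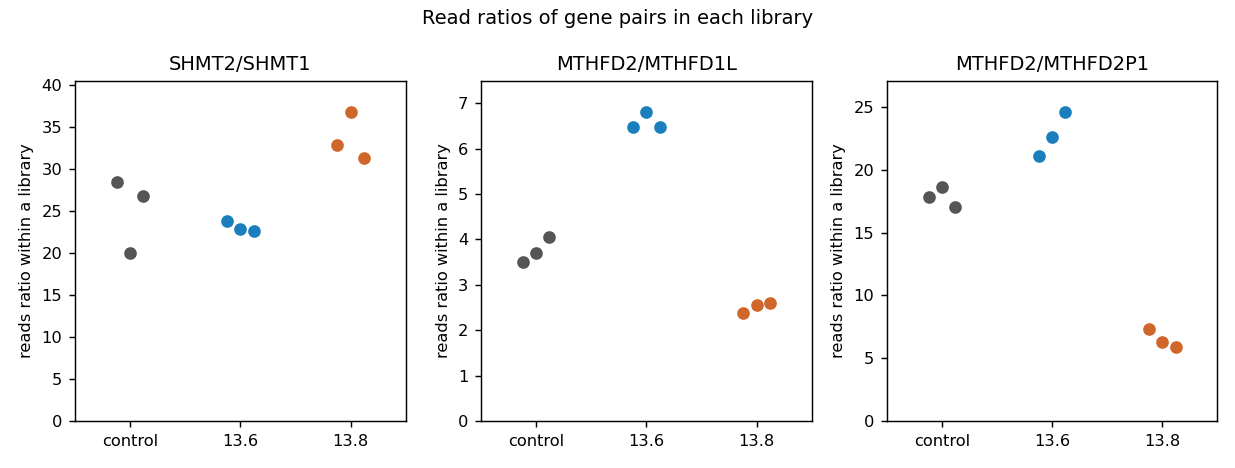
Reads of a gene divided by reads of its partner within each library, on linear axes from 0, for SHMT2 to SHMT1, MTHFD2 to MTHFD1L and MTHFD2 to the pseudogene MTHFD2P1. Points are single libraries: the MTHFD2 to MTHFD1L ratio is 6.48 to 6.81 with 13.6, 3.51 to 4.05 in controls and 2.37 to 2.6 with 13.8.

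ALDH1L2, the mitochondrial formyltetrahydrofolate dehydrogenase, was almost silent in control cells. It had 2, 5 and 2 reads in controls, 11, 17 and 6 with 13.6, and 27, 18 and 21 with 13.8. The 6 knockdown libraries lay above the controls in CPM, the lowest of them at 0.132 CPM against 0.13 CPM in the highest control. No control library reached 10 reads, so the gene passed the filter on low counts only through knockdown libraries and its calls are no independent support. Scaled by depth, the summed reads were 3.56 times the control with 13.6 (95% exact interval 1.67 to 8.45, counting error only) and 6.15 times with 13.8 (3.05 to 14). It rose with 13.6 (1.79 ± 0.62, adjusted p = 0.028) and with 13.8 (2.57 ± 0.57, adjusted p = 0.00174). With 13.6 it no longer passed when control replicate 1 (1.5), control replicate 3 (1.58), 13.6 replicate 1 (1.76) or 13.6 replicate 2 (1.42) was left out. Between the reagents the log2 difference of 13.6 minus 13.8 was −0.79 ± 0.45, which did not pass (adjusted p = 0.147), and their libraries overlapped. The summed reads with 13.6, scaled by depth, were 0.58 times those with 13.8 (95% exact interval 0.371 to 0.889, counting error only).

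Counted over the 9 members other than PSAT1, 5 fell with 13.6 (PSPH, SHMT1, SHMT2, MTHFD1 and MTHFD1L), 1 rose (ALDH1L2) and 3 did not pass, where 49.9% of all genes tested were called, 25% lower and 24.9% higher. With 13.8, 4 fell (SHMT1, SHMT2, MTHFD1 and MTHFD2), 1 rose (ALDH1L2) and 4 did not pass, against 55.5% of all genes called, 27.9% lower and 27.5% higher. Both comparisons use the same 3 control libraries. ALDH1L2 passed the filter on low counts only through knockdown libraries, so its calls in these counts are no independent support. Between the reagents, 3 of the 10 members were lower with 13.6 (PHGDH, PSPH and MTHFD1L) and 2 higher (SHMT1 and MTHFD2), against 61.1% of all genes, 30.2% lower and 30.9% higher. Counts of 6, 5 and 5 members called lie near these backgrounds and are no result about the set.

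**Figure D3:**
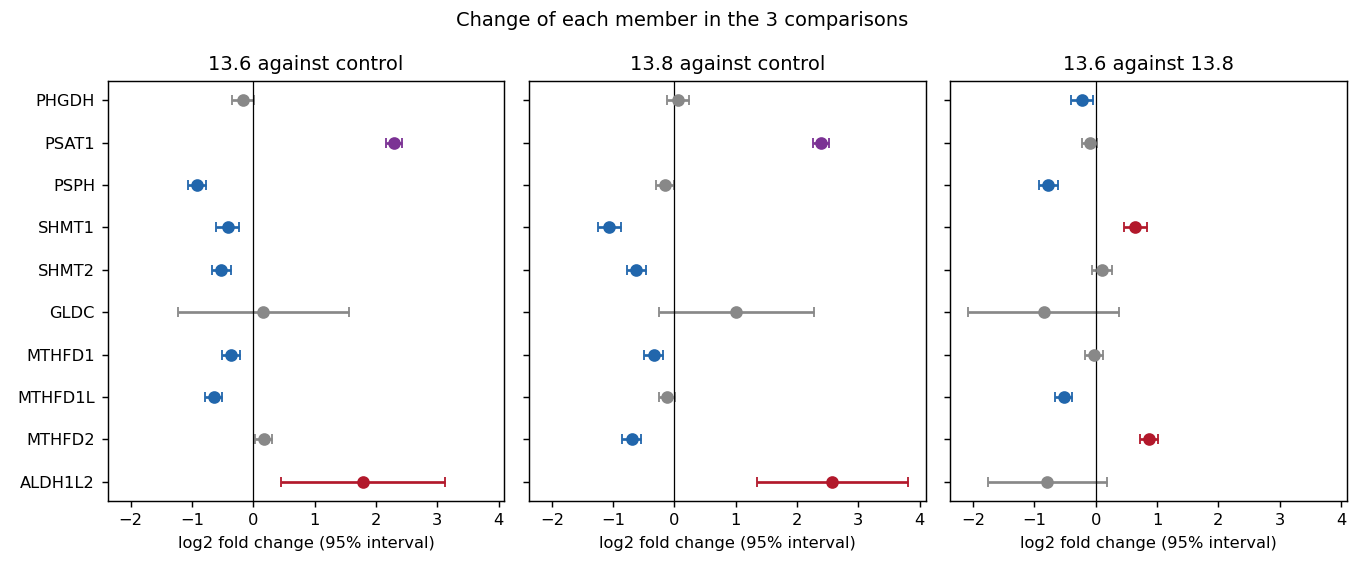
Log2 fold change of each of the 10 genes with its 95% interval from edgeR's quasi-likelihood fit, for DsiRNA 13.6 against control, DsiRNA 13.8 against control and 13.6 against 13.8. Red marks genes called higher, blue called lower, grey not called, and purple PSAT1 where it was picked for its rise and is shown without a test. SHMT1, SHMT2 and MTHFD1 are lower with both reagents, PSPH and MTHFD1L with 13.6 and MTHFD2 with 13.8.

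Levels of different members were compared per kilobase of annotated exon (GENCODE release 29). In controls SHMT2 (243 ± 24 CPM per kilobase) and PHGDH (127 ± 11) came first, followed by MTHFD2 (99.8 ± 7.8) and PSPH (59.5 ± 4.3). MTHFD1L (25.8 ± 1.9) and MTHFD1 (20.8 ± 1.5) were lower, and PSAT1 (11.9 ± 0.42) and SHMT1 (6.49 ± 0.76) lower still. GLDC (0.0185 ± 0.009) and ALDH1L2 (0.00871 ± 0.0057) closed the order and overlapped within their SD, while the other neighbours differed by more than theirs (n = 3 libraries for each value). With the length of the longest transcript in place of all exons, PHGDH (367 ± 32) and SHMT2 (343 ± 34) changed places and overlapped, SHMT1 (17.1 ± 2.0) came above PSAT1 (11.9 ± 0.42), and GLDC (0.0425 ± 0.021) and ALDH1L2 (0.00981 ± 0.0064) no longer overlapped. PSAT1 moved from the seventh place in controls to 58 ± 2.3 CPM per kilobase with 13.6 and 62.2 ± 0.79 with 13.8. PSPH stood at 31.4 ± 1.3 with 13.6 and 53.6 ± 3.1 with 13.8, below PSAT1. With the longest transcript this order held for 13.6 (PSAT1 58 ± 2.3, PSPH 39.8 ± 1.6) and was turned for 13.8 (PSAT1 62.2 ± 0.79, PSPH 68 ± 3.9).

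Genes whose level over the 9 libraries ran most like that of PSAT1, among 9288 others with a mean of at least 5 CPM, were PON2, a lactonase of membranes (Pearson r = 0.9989), CCDC43 (0.997), LMBRD1, which is needed to bring vitamin B12 out of lysosomes (0.9964), the cartilage collagen COL9A1 (0.9957) and CHURC1 (0.9956). Their log2 differences from control were 0.84 and 0.90 for PON2, 1.14 and 1.26 for CCDC43, 1.81 and 1.77 for LMBRD1, 2.32 and 2.51 for COL9A1, and 1.29 and 1.47 for CHURC1, with 13.6 and 13.8 in turn. They were chosen for this likeness, so these values are a description, and 35 genes in all exceeded an r of 0.99. The 9 points fall into 3 groups and share the control libraries.

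Genes around the pathway are given by list, and each count is to be read against the share of all genes called: 24.9% higher and 25% lower with 13.6, and 27.5% higher and 27.9% lower with 13.8. With only 5 to 19 tested genes a list, nothing particular to a list is drawn from its counts. PGAM1, which moves 3-phosphoglycerate on toward pyruvate, rose from 71.1 to 163 CPM with 13.6 (1.20 ± 0.08) and to 223 CPM with 13.8 (1.65 ± 0.08), and was lower with 13.6 than with 13.8 (−0.45). It was the only one of 7 glycolysis genes around this step to rise with either reagent, while 1 fell with 13.6 and 3 with 13.8. The neuronal enolase ENO2 fell with both (−0.81 and −1.08). The pyruvate kinase PKM fell with 13.8 (−0.28), stood at 0.17 with 13.6 (adjusted p = 0.0591) and was 0.46 higher with 13.6 than with 13.8. PKM with 13.6 passed by DESeq2 (adjusted p = 0.034) and limma-voom (adjusted p = 0.0487). In edgeR it passed without control replicate 2 (0.22) and when genes averaging under 50 reads were dropped (0.18, adjusted p = 0.0498). Among 7 tested serine and glycine carriers 2 rose and 3 fell with 13.6, and 0 rose and 3 fell with 13.8. The neutral amino acid exchanger SLC1A4 fell with both (−0.91 and −0.44), as did the sideroflexin SFXN2 (−0.76 and −0.61). SLC38A2 rose with 13.6 (0.23) and fell with 13.8 (−0.21), a difference of 0.44.

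Of 9 other folate enzymes tested, 4 fell and 0 rose with 13.6, and 3 fell and 0 rose with 13.8. The thymidylate synthase TYMS fell with both (−0.51 and −1.0) and was 0.50 higher with 13.6 than with 13.8. The 5 folate uptake and retention genes had 1 higher and 1 lower with 13.6, and 2 higher and 1 lower with 13.8. The intestinal folate carrier SLC46A1 fell with 13.6 (−0.46) and rose with 13.8 (0.36), while the mitochondrial carrier SLC25A32 rose with 13.6 (0.21) and fell with 13.8 (−0.33). Both differed between the reagents (−0.83 and 0.54). SLC25A32 with 13.6 did not pass when control replicate 1 (0.19), control replicate 2 (0.18), 13.6 replicate 2 (0.21) or 13.6 replicate 3 (0.17) was left out.

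Of 8 genes of purine synthesis, which uses formate units of this pathway, 4 rose and 0 fell with 13.6, and 1 rose and 4 fell with 13.8. PPAT, the first committed enzyme, rose with both (0.38 and 0.35). PRPS1 rose with 13.6 (0.51) and stood at −0.14 with 13.8 (adjusted p = 0.0691), and PFAS fell with 13.8 (−0.49) and stood at −0.02 with 13.6 (adjusted p = 0.86). PRPS2 went from 20.8 CPM in controls to 25.2 CPM with 13.6 (0.28, adjusted p = 0.0304) and 4.94 CPM with 13.8 (−2.07 ± 0.11). PRPS2 with 13.6 did not pass with library totals (0.24), nor without control replicate 1 (0.25), control replicate 3 (0.23), 13.6 replicate 2 (0.29) or 13.6 replicate 3 (0.22). PRPS2 and PRPS1 were 2.35 and 0.65 higher with 13.6 than with 13.8.

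Of 8 methionine cycle and transsulfuration genes 2 rose and 4 fell with 13.6, and 4 rose and 3 fell with 13.8. CTH, which makes cysteine, fell with both (−0.97 and −0.63), as did AHCYL1, a relative of AHCY and not AHCY itself (−0.95 and −0.25). AHCY, named after its values were seen, stood at 0.11 with 13.6 (adjusted p = 0.132) and rose with 13.8 (0.38). MAT2B, a subunit of the methionine adenosyltransferase, rose with 13.6 (0.29) and fell with 13.8 (−0.95), and the cystathionine synthase CBS fell with 13.6 (−0.59) and rose with 13.8 (0.33). Between the reagents MAT2B was 1.25 higher and CBS 0.91 lower with 13.6. Of 14 other serine or glycine enzymes 5 rose and 6 fell with 13.6, and 4 rose and 3 fell with 13.8. The serine racemase SRR fell with both (−0.70 and −0.76), as did ALAS1 of haem synthesis (−0.30 and −0.58) and the amidinotransferase GATM (−0.82 and −0.41). GATM with 13.8 did not pass without control replicate 1 (−0.34) or 13.8 replicate 3 (−0.38). The phosphatidylserine synthase PTDSS2 fell with 13.6 (−0.32) and rose with 13.8 (0.45), a difference of −0.77. SDSL fell with 13.6 (−0.60), stood at 0.11 with 13.8 (adjusted p = 0.577) and was lower with 13.6 than with 13.8 (−0.71).

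ATF4 itself stood at 1180 CPM in controls, 1140 CPM with 13.6 (−0.05 ± 0.10, adjusted p = 0.672) and 1280 CPM with 13.8 (0.12 ± 0.10, adjusted p = 0.323), and was named after its values were seen. Without control replicate 3 its difference with 13.8 was 0.21 and narrowly passed (adjusted p just under 0.05, and 0.05 when rounded). Of 19 other ATF4 target genes 2 rose and 11 fell with 13.6 (median −0.31, against −0.009 over all genes), and 4 rose and 11 fell with 13.8 (median −0.28, against 0.013). The shares of all genes called were 24.9% higher and 25% lower with 13.6, and 27.5% and 27.9% with 13.8. The transcription factor ATF3 fell with both (−0.86 and −1.11), as did PCK2 (−0.78 and −0.43) and the leucine transporter SLC7A5 (−0.40 and −0.81). The asparagine synthetase ASNS fell with 13.6 (−0.80) and rose with 13.8 (0.37), and the glutathione-degrading CHAC1 did likewise (−0.69 and 0.54). Both were lower with 13.6 than with 13.8 (−1.17 and −1.22). Among 8 factors known to act on serine synthesis genes 2 rose and 0 fell with 13.6, and 3 rose and 3 fell with 13.8. The kinases EIF2AK2 (0.46 and 0.22) and EIF2AK1 (0.29 and 0.32) rose with both, though EIF2AK2 with 13.8 did not pass without control replicate 1 (0.17), control replicate 3 (0.18) or 13.8 replicate 1 (0.18). EIF2AK3 and EIF2AK4 fell with 13.8 (−0.42 and −0.34) and stood at −0.02 and 0.01 with 13.6 (adjusted p = 0.866 and 0.885). They were 0.41 and 0.35 higher with 13.6 than with 13.8.

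**Figure D4:**
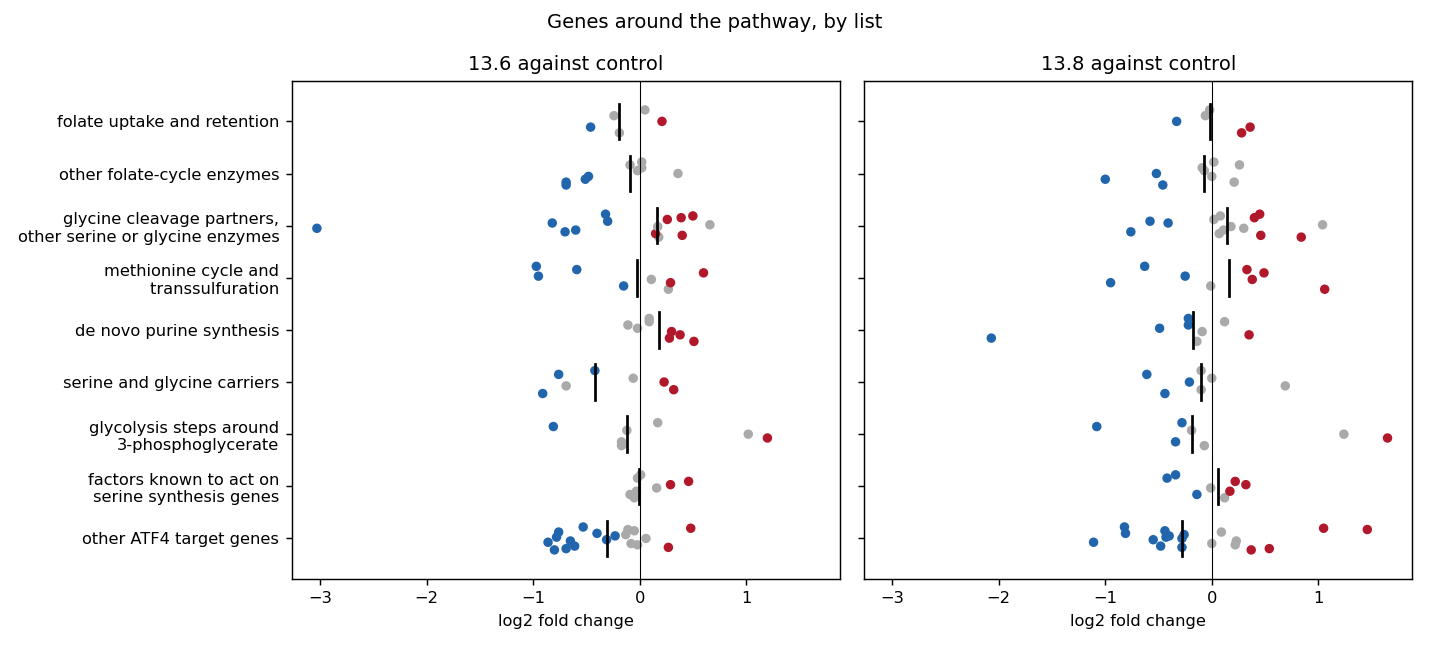
Log2 fold change of every tested gene in 9 lists around the pathway, for DsiRNA 13.6 and DsiRNA 13.8 against the same controls. Each point is a gene, red where called higher, blue where called lower and grey otherwise, and the black bar is the median of the list. The other ATF4 target genes have medians of −0.31 and −0.28, and PGAM1 is the red point at 1.20 and 1.65 in the glycolysis row.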

How the data were processed

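Total RNA of 9 libraries was sequenced after a strand-specific library preparation, per the labels' protocols. The aligner STAR, the counter HTSeq, the tools cutadapt, FastQC and DESeq2, and build hg19 are named per the submitters' processing notes, without versions, annotation or strand setting. The table the authors deposited gives unnormalized read counts under gene symbols. Of 25398 entries, 16 repeats of identical entries were dropped. Libraries of a group correlated at 0.991 to 0.995 on the log2 CPM scale.

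The tests ran in edgeR 4.0.16 under R 4.3.3: filterByExpr (minimum count 10), TMM scaling, and a robust quasi-likelihood fit of all 9 libraries with 1 mean per group, two-sided, tested on simulated data. Alternatives used DESeq2 1.42.0, limma-voom (limma 3.58.1), other scalings, filters and sample sets. Named genes are the members, TBX3, MTHFD2P1, up to 2 called genes per list and comparison with the smallest adjusted p (given against control for both reagents), the 5 genes most correlated with PSAT1 (clone, locus and pseudogene names skipped), and those said to be named after their values were seen; some genes and sites under this rule are not reported here. The members and lists were chosen with earlier results of these data known.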

Additional observations from a re-analysis of the deposited data

Results flagged for a closer look

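The effects of the 2 reagents differed by a direct test of 13.6 against 13.8 in 5 of the 10 members. Of all genes tested, 61.1% were called in this comparison. The log2 difference of 13.6 minus 13.8 was 0.87 for MTHFD2 and 0.64 for SHMT1, and −0.77 for PSPH, −0.52 for MTHFD1L and −0.23 for PHGDH. In each of these 5 genes all 3 libraries of one reagent lay beyond all 3 of the other, as they did in 68.8% of all genes tested. The call of PHGDH did not hold when 13.6 replicate 1, 13.6 replicate 3, 13.8 replicate 2 or 13.8 replicate 3 was left out.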

How the results depend on the processing

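The falls of SHMT1, SHMT2 and MTHFD1 with both reagents, of PSPH and MTHFD1L with 13.6 and of MTHFD2 with 13.8 kept their direction and passed under every alternative run. The count of members other than PSAT1 that rose with 13.6, 1 by the reported fit, was 2 by DESeq2, limma-voom and with the replicate block (MTHFD2 joined), 0 with only the 2 groups compared, where ALDH1L2 was not tested, and 0 to 2 on leaving out single libraries. With 13.8 that count was 1, and 0 with a mean of at least 50 reads, a filter that removes ALDH1L2 and GLDC. Leaving out single libraries gave −0.01 to 0.12 for PHGDH with 13.8 (below 0 without control replicate 2 or 13.8 replicate 2), −0.51 to 0.57 for GLDC with 13.6 (−0.51 without 13.6 replicate 2, −0.18 without control replicate 3) and −0.07 to 0.03 for MTHFD1 between the reagents (above 0 without 13.8 replicate 1). None of these passed the test under any of them. For genes around the pathway that had not passed, leaving out single libraries also gave both signs: −0.11 to 0.04 for ATF4 with 13.6, −0.05 to 0.26 for SDSL with 13.8, and, with 13.6, −0.09 to 0.02 for EIF2AK3, −0.03 to 0.06 for EIF2AK4 (−0.02 with library totals) and −0.07 to 0.01 for PFAS. Whether libraries that share a replicate number share more than the number was not tested. Their deviations from the group mean correlated at −0.18 to 0.19. In the 3 comparisons 3, 3 and 4 of 6 libraries matched their own number best. With the replicate block MTHFD2 with 13.6 (0.17, adjusted p = 0.0353) and PSPH with 13.8 (−0.15, adjusted p = 0.0195) passed, as did PKM with 13.6 (0.17, adjusted p = 0.0488), and the percentage of all genes called went to 54.4, 59.8 and 65. GLDC and ALDH1L2 are limited by depth, with 97 and 109 reads in all.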
